A study of Homo sapiens with 16 samples.

Results

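The genes described here encode the stress-activated MAP kinases of 2 families. The JNK family comprises MAPK8 (JNK1), MAPK9 (JNK2) and MAPK10 (JNK3), and the p38 family comprises MAPK14 (p38α), MAPK11 (p38β), MAPK12 (p38γ) and MAPK13 (p38δ). These 7 genes, of 19974 protein-coding genes on chromosomes 1 to 22 and X, were chosen by family, with the presence of their peaks in the 4 lists already known, and every open-chromatin region that overlapped a gene's span extended by 10 kb on either side was assigned to it. That gave 73 regions of 183659 in all, 37 at MAPK10 and 36 at the other 6 genes. MAPK11 and MAPK12 are neighbours on chromosome 22 and had 3 regions in common, and MAPK14 and MAPK13 are neighbours on chromosome 6 and also had 3 in common, so the counts per gene add up to more than 73.

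Chromatin accessibility was mapped by NicE-seq. In this assay the nickase Nt.CviPII and a DNA polymerase place biotinylated nucleotides in the accessible DNA of fixed nuclei. The cells were U87, an established human glioblastoma line, and 16 libraries fell into 4 groups of 4. The groups were Asi_Bel (AsiDNA and belinostat, called the combination here), Control_Bel (belinostat), Asi_DMSO (AsiDNA) and Control_DMSO (the DMSO vehicle). Belinostat, an inhibitor of histone deacetylases, was used at 1 µM for 24 h. AsiDNA is a short double-stranded DNA that imitates a broken end. No dose or duration of AsiDNA is given in the labels, and their protocols name the cells MTU87 and LTAU87, so how the Asi groups were exposed, and whether they are a separate subline of U87, is not settled here. Each group had 1 peak list, so there is no spread between replicates, no test was possible, and every comparison below is a description of 4 lists. After restriction to chromosomes 1 to 22 and X the lists held 134865 peaks for the combination, 138937 for belinostat, 138273 for AsiDNA and 130318 for vehicle. Read depth is unknown. A missing peak therefore means only that the authors' caller listed none there (the lowest −log10 q in any list was 1.303), and peak lists give no expression level of the genes.

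MAP kinases of these families are switched on by phosphorylation of a threonine and a tyrosine in the activation loop, by MAP2K enzymes that are themselves activated by MAP3K enzymes. Osmotic stress, ultraviolet light, cytokines and DNA damage act through them. JNK kinases phosphorylate JUN and related transcription factors, and p38 kinases act on kinases such as MAPKAPK2 and on factors such as ATF2. JNK1, JNK2 and p38α are broadly expressed, whereas JNK3 is known mainly from neurons.

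The sequence before the annotated starts is shown first, because the absence of a peak there set MAPK13 apart from the other members. RefSeq (GRCh38.p14, the build of the peak files) lists 11 starts for the 7 genes, and 6 of them, 1 for each gene but MAPK13, lay inside a region that all 4 lists held. The 250 bases before 5 starts are given below, 5′ to 3′ on the strand of the gene. They comprise the 3 MAPK10 starts, of which only the middle one lay in a peak, the MAPK13 start, which had no peak in any list, and the MAPK14 start, which had one in every list. Capitals mark matches, on either strand, to TGACGTCA (the CRE of ATF and CREB factors), TGANTCA (the AP-1 element), CTCGCGAG, CACGTG (the E-box), CCAAT and CCGCCC (the GC box), with no match overlapping another. The motifs were picked after the sequences had been read.
MAPK10 start at 86360053, chr4:86360054-86360303, minus strand: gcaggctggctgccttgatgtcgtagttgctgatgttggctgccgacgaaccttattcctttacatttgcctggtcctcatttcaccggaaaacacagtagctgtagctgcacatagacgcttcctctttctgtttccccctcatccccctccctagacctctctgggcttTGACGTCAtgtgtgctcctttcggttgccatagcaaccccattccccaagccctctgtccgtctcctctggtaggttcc
MAPK10 start at 86370867, chr4:86370868-86371117, minus strand: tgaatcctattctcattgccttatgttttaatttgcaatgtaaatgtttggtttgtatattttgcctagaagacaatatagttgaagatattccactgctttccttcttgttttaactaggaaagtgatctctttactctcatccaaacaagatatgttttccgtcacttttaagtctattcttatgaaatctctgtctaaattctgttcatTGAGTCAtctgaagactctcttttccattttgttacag
MAPK10 start at 86354644, chr4:86354645-86354894, minus strand: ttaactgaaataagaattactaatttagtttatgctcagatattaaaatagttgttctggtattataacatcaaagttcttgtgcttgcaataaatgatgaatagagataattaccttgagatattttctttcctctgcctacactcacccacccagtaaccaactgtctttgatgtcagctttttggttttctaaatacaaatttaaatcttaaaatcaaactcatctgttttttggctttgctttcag
MAPK13 start at 36130513, chr6:36130263-36130512, plus strand: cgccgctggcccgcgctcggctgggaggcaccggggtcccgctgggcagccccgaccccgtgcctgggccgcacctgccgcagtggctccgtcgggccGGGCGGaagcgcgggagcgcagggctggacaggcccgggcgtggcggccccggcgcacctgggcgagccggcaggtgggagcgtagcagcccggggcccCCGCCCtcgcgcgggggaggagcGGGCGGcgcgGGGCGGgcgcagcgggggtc
MAPK14 start at 36027808, chr6:36027558-36027807, plus strand: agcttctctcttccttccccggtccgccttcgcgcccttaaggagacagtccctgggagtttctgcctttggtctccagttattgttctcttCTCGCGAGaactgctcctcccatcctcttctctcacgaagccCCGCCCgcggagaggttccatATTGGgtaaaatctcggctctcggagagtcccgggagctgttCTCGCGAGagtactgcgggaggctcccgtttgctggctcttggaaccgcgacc

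The MAPK10 window with a peak was 54% G and C, held 8 CpG dinucleotides and contained the CRE, which 2.02% of 22130 such windows of protein-coding genes contain. The 2 MAPK10 windows without a peak were 31.6% and 30% G and C with 1 and 0 CpG. The first of these carried TGAGTCA, a match to the broader word TGANTCA, which 5.35% of windows contain. Its nearest region was 2963 bp from the start. Both end in the letters cag. Nick sites of the assay (CC followed by A, G or T, both strands) numbered 10 and 9 in them, against 28 in the MAPK10 window with a peak. The MAPK13 window, also without a peak, had 50. Median counts were 37 for starts with a peak within 1000 bp in all lists and 29 for starts with none. MAPK14 held CTCGCGAG at 2 places, a word present in 1.18% of windows. At MAPK13 the window was 84.4% G and C with 38 CpG and 4 GC boxes, as rich as the window of MAPK8 (80.4% and 38 CpG), where all lists had a peak. Of 9190 windows with 20 or more CpG, 13.9% had no peak within 1000 bp of the start in any list. MAPK13 was among them, its nearest region being 1326 bp from the start. A motif match is a match of letters and not evidence of a bound factor.

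Of the 73 regions, 36 were held by all 4 lists (49.3%, Wilson 95% interval 38.2 to 60.5, counting error only), against 51.4% of all regions. A further 12 were held by both lists without belinostat, AsiDNA and vehicle, and by neither belinostat list (16.4%, interval 9.66 to 26.6), where the background was 5.04%. The opposite pattern, a peak in the combination and belinostat lists alone, was found at 1 region (1.37%, interval 0.242 to 7.36), and its background was 6.09%. Of these 12, 10 lay in MAPK10 and the other 2 in MAPK8, and the 1 region of the opposite pattern was also in MAPK10. The p38 genes had 16 regions, 11 of them in all lists (68.8%, interval 44.4 to 85.8). They had 0 in either belinostat pattern, with an interval of 0 to 19.4% for each, which includes both backgrounds. The genes were chosen with such differences known, so these counts describe the members and no test of them is given.

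The other 24 of the 73 regions were scattered over 11 patterns. The AsiDNA list alone held 5 (background 6.78%), the vehicle list alone 3 (4.74%), the combination list alone 1 (4.39%) and the belinostat list alone 1 (6.72%). A peak in both single-drug lists only was found at 3 regions (1.39%), in both AsiDNA lists only at 2 (1.23%), and in both lists without AsiDNA only at 1 (0.89%). Belinostat alone was the missing list at 4 regions (2.63%), vehicle at 2 (3.66%), the combination at 1 (2.25%) and AsiDNA at 1 (2.09%). No test of these counts is given.

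**Figure D1:**
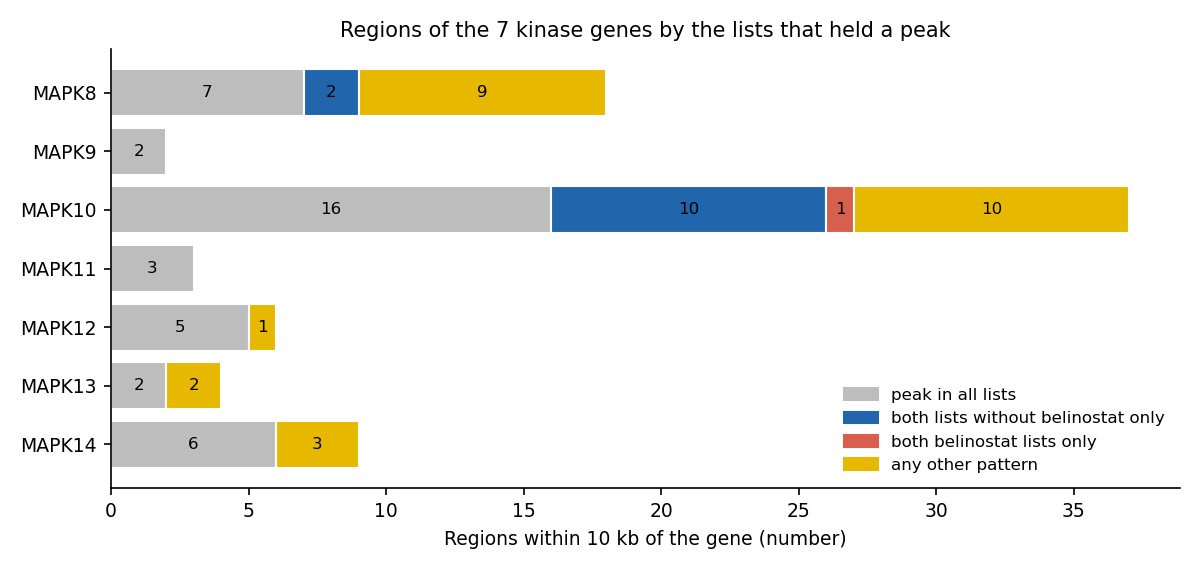
Number of open-chromatin regions within 10 kb of each kinase gene (horizontal axis), split by which of the 4 peak lists held a peak. Regions open only without belinostat number 10 at MAPK10 and 2 at MAPK8, and the other genes have none.

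MAPK10, the JNK3 gene, spans 583.7 kb on the minus strand of chr4:86010405-86594074. Its window held peaks in 21 regions in the combination list and 20 in the belinostat list, against 35 in the AsiDNA list and 28 in the vehicle list. The bases covered were 10567 and 10679 in the combination and belinostat lists, and 15567 and 13171 in the AsiDNA and vehicle lists. Both belinostat lists thus had fewer regions and fewer open bases along the gene than either list without the drug. Over the genome the combination, belinostat, AsiDNA and vehicle lists held 134865, 138937, 138273 and 130318 peaks. They covered 63.28, 66.06, 67.65 and 62.38 Mb. The combination list is thus longer than the vehicle list but shorter than the AsiDNA list.

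In the pair of belinostat over vehicle, 12 of the 37 MAPK10 regions were in the vehicle list only (32.4%, interval 19.6 to 48.5, background 13.1%) and 4 in the belinostat list only (10.8%, 4.29 to 24.7, background 17.9%). In the pair of combination over AsiDNA, which uses neither of those lists, 15 regions were in the AsiDNA list only (40.5%, 26.4 to 56.5, background 15.5%) and 1 in the combination list only (2.7%, 0.479 to 13.8, background 13.3%). The 2 pairs have 10 regions of the vehicle-only and AsiDNA-only sets in common. MAPK10 was chosen with these differences known, so the likeness of the 2 pairs is no independent result. For AsiDNA over vehicle there were 8 regions in the AsiDNA list only (21.6%, 11.4 to 37.2, background 13.1%) and 1 in the vehicle list only (2.7%, 0.479 to 13.8, background 8.46%). The combination over vehicle showed 4 and 11 regions in its list only and in the vehicle list only (10.8% and 29.7%, backgrounds 15.4% and 12.9%), and the combination over belinostat 2 and 1 (5.41% and 2.7%, backgrounds 8.99% and 11.2%). The last 3 pairs share a list with the first 2 and are given beside them only as values.

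The 10 regions open only without belinostat were spread along the gene. They ran from 44.5 kb to 558.2 kb behind the outer 5′ end of the span, with gaps of 8.92 to 115 kb between neighbours (median 66.3 kb). With the gene divided into 10 parts of equal length, each part had 1 such region, except part 3 with 0 and part 5 with 2. The regions were thus not gathered in one stretch of the gene.

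Nearest the 5′ end was chr4:86549477-86549768, 44.5 kb into the gene, with a fold enrichment over local background of 8.41 in AsiDNA and 9.22 in vehicle. These folds stood at percentiles 73.6 and 82 of their own lists, the highest rank of the 10 in the vehicle list. The next, chr4:86482882-86483231, lay 111 kb in, with folds of 6.77 and 5.91 in AsiDNA and vehicle.

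A group of 3 regions lay around the internal MAPK10 start whose sequence is shown above. Upstream of it, chr4:86367538-86367904 had folds of 5.61 in AsiDNA and 5.20 in vehicle. Just downstream, chr4:86358321-86358620 had 3.25 and 4.03, the first being the weakest of the 10 in the AsiDNA list, and −log10 q-values of 4.40 in AsiDNA and 7.12 in vehicle. Farther on, chr4:86333235-86333686 had 5.37 and 8.04. Every list held a peak at the start itself.

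Deeper in the gene, chr4:86256004-86256423 at 337.9 kb tied with the region at 44.5 kb for the highest rank of the 10 in the AsiDNA list, with folds of 8.41 in AsiDNA and 8.28 in vehicle (percentiles 73.6 and 75.6). Behind it lay chr4:86220210-86220481, with 5.87 in AsiDNA and 3.72 in vehicle. Toward the 3′ end followed chr4:86130668-86130952 with 5.37 and 4.26, inside the span of the antisense transcript MAPK10-AS1, chr4:86108153-86108469 with 6.77 and 4.49, and chr4:86035805-86036036 with 4.87 and 4.57. The order of the 2 lists differed from region to region, AsiDNA being ahead in some and vehicle in others, and folds of different lists are not on a common scale.

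**Figure D2:**
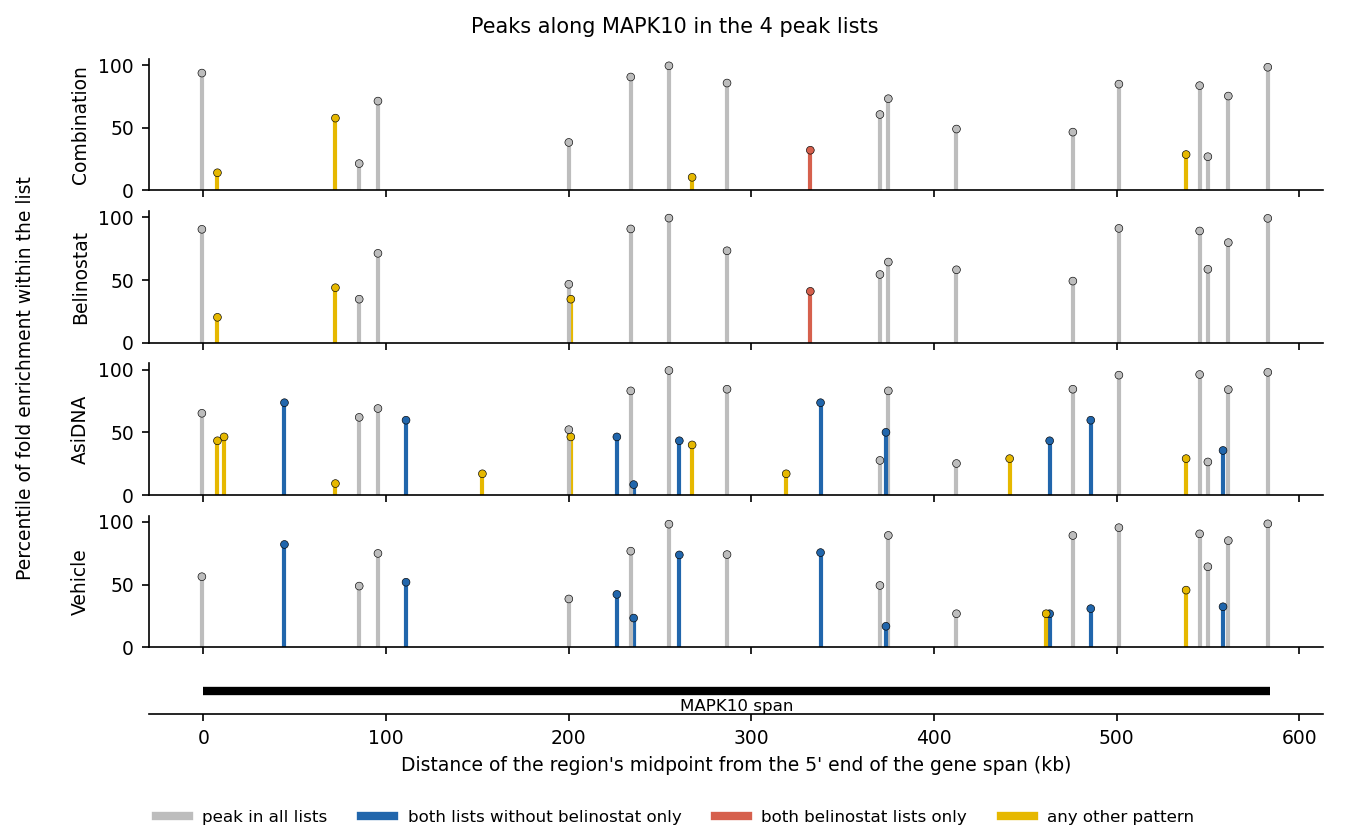
Peaks of each list along MAPK10, by the distance of the region's midpoint from the outer 5′ end of the gene span in kb (horizontal axis) and the percentile of the fold enrichment within that list (vertical axes, 0 to 100). Colours give the lists that held the region, and the 10 blue regions, between 44.5 and 558.2 kb, have stems in the AsiDNA and vehicle panels only.

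The 1 region with the opposite pattern was chr4:86261627-86261961, 332.3 kb into the gene, with folds of 4.85 in the combination and 5.33 in belinostat. It lay next to the region at 337.9 kb described above. Among patterns tied to AsiDNA, chr4:86326351-86326689 was held by both AsiDNA lists only, with folds of 3.46 in the combination and 5.14 in AsiDNA. The AsiDNA list alone held 4 regions, the 3 highest being chr4:86582471-86582850 (fold 5.61), chr4:86152509-86152798 (4.44) and chr4:86441152-86441352 (3.74, also the fold of the remaining one). Vehicle alone held 1, chr4:86132545-86132738 (fold 4.26). A peak in every treated list but not in vehicle was found at chr4:86521428-86522015, with folds of 7.16, 5.56 and 3.27 in the combination, belinostat and AsiDNA, and at chr4:86586161-86586451, with 3.69, 3.94 and 5.37.

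Regions open only without belinostat were narrower and ranked lower than the 16 MAPK10 regions held by all lists, but they ranked above the same class elsewhere. Their percentile ran from 8.32 to 73.6 in the AsiDNA list (median 48.2) and from 16.8 to 82 in the vehicle list (median 37.3). For the 9257 regions of that pattern over the genome the medians were 29 and 26.8. The 16 MAPK10 regions of all lists had medians of 74.2, 72.3, 83.1 and 75.8 in the combination, belinostat, AsiDNA and vehicle lists. At percentile 50 or more in both AsiDNA and vehicle stood 3 of the 10 MAPK10 regions (30%), against 951 of the 9257 (10.3%). Median widths were 301 and 260 bp in AsiDNA and vehicle, near the 284 and 266 bp of the class over the genome, and the MAPK10 regions of all lists measured 558 and 511 bp in the same lists. A −log10 q of 5 or more was reached by 9 of the 10 in AsiDNA and by all 10 in vehicle. Over the genome, 7485 and 7005 of the 9257 regions of that pattern reached it in AsiDNA and vehicle, so most of the class did as well.

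**Figure D3:**
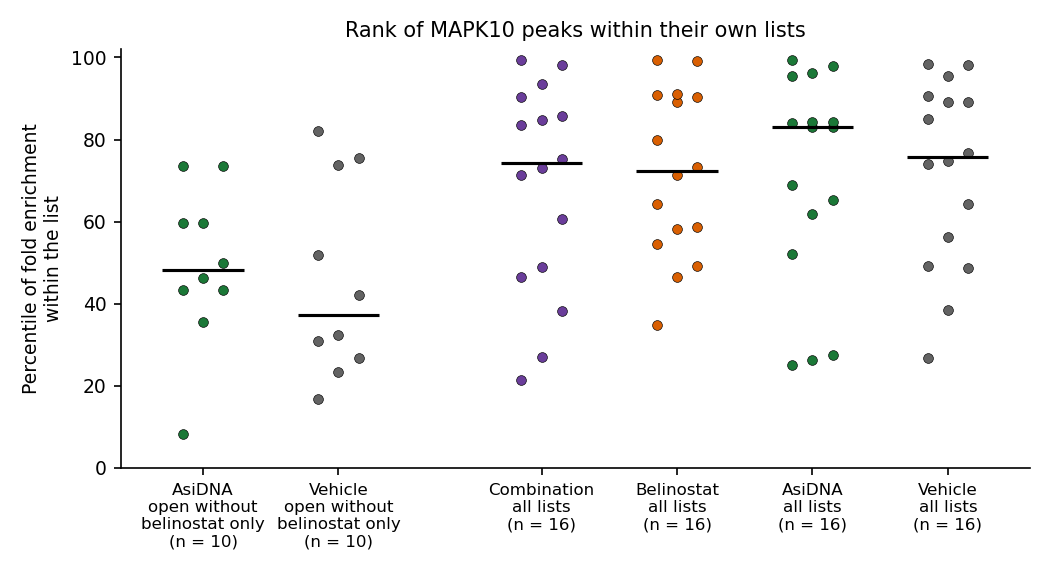
Percentile of the fold enrichment within its own list (vertical axis, 0 to 100) for each MAPK10 region, with the 10 regions open only without belinostat on the left and the 16 regions of all lists on the right. Each point is 1 region and the bar is the median, which is 48.2 and 37.3 for the first class in the AsiDNA and vehicle lists and 72.3 to 83.1 for the second class in the 4 lists.

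The neighbourhood of MAPK10 had a smaller share of regions open only without belinostat. Because MAPK10 was picked with this share known, the contrast with its neighbourhood is no independent result. In the 1 Mb before the window (lower coordinates), 3 of 63 regions were open only without belinostat (4.76%), and in the 1 Mb after it 2 of 85 were (2.35%), against 10 of 37 within the window (27%, interval 15.4 to 43). The first region outside the 10 kb limit on the lower side, chr4:85994583-85994984 in ARHGAP24, had the same pattern, with folds of 5.14 in AsiDNA and 6.15 in vehicle, 15.4 kb from the gene. On the other side the next region was 70.7 kb away and was held by all lists.

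Genes of similar size served as a further description. Among 473 protein-coding genes with 0.5 to 2 times the span of MAPK10 and 20 or more regions, the share open only without belinostat had a median of 5.71%, and MAPK10 had the highest value, 27%. DTNB, which encodes a dystrobrevin, came next with 5 of 22 regions (22.7%). Below the limit of 20 regions some genes of this size had higher shares than MAPK10. Among them were WDR7 (5 of 18 regions, 27.8%) and CA10 (2 of 4, 50%). By the summed difference of shares over all 15 patterns, the 5 genes most like MAPK10 were DTNB, PTPRK (7 of 37 regions, 18.9%), BTBD9 (4 of 26, 15.4%), SYNE2 (5 of 38, 13.2%) and CEP112 (6 of 35, 17.1%). PTPRK encodes a receptor-type tyrosine phosphatase and SYNE2 a nuclear envelope protein. MAPK10 was picked for this property, so its place in the order is no independent result.

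The strongest MAPK10 regions held by all lists were within the gene and at its 3′ end. The region chr4:86338886-86339495 had folds of 20.2, 19.8, 17.9 and 14.7 in the combination, belinostat, AsiDNA and vehicle, and stood at percentile 98.2 or above in every list. Close to the 3′ end, chr4:86011046-86011614 had 18.1, 19.3, 15.5 and 15.1. At chr4:86117719-86118390, also held by all lists, the fold was at percentiles 46.5 and 49.2 in the combination and belinostat lists. In the AsiDNA and vehicle lists it was at 84.4 and 89.2. That region was named after its values were seen, and other regions of all lists went the opposite way. At chr4:86181598-86182025 the percentiles were 49 and 58.2 in the combination and belinostat lists, against 25.1 and 26.8 in AsiDNA and vehicle.

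Both MAPK10 regions at a 5′ end were narrower in the belinostat lists. At the internal start, chr4:86359547-86360508 was covered over 592 and 598 bp in the combination and belinostat lists, and over 962 and 855 bp in the AsiDNA and vehicle lists. Its folds were 13.5 and 13.3, against 9.91 and 8.43. The width ratio was 0.615 for the combination over AsiDNA and 0.70 for belinostat over vehicle. At the outer 5′ end, chr4:86593816-86595828 measured 1212 and 1483 bp in the combination and belinostat lists, and 1916 and 2013 bp in the AsiDNA and vehicle lists, ratios of 0.633 and 0.737. In the combination list the 1212 bp were the sum of 2 separate peaks, where each other list had 1. This region also overlaps PTPN13, a tyrosine phosphatase gene that begins next to MAPK10, so the peak cannot be given to either gene alone. Its folds of 14.8 and 13.2 stood at percentiles 93.6 and 90.5 of the combination and belinostat lists, and those of 7.36 and 6.27 at percentiles 65.2 and 56.3 of the AsiDNA and vehicle lists. At both 5′ ends the belinostat lists therefore covered fewer bases, and their peaks stood higher within their lists.

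At the starts of the other kinase genes the widths lay closer together. MAPK9 had its broadest region there, with 2131 and 2177 bp in the combination and belinostat lists, and 2477 and 2378 bp in the AsiDNA and vehicle lists. MAPK8 had 1042 and 1072 bp, against 1173 and 1132 bp. MAPK11 had 1158 and 1110 bp, against 1294 and 1133 bp. The MAPK12 start was covered over 1011 and 1314 bp in the combination and belinostat lists, and 1266 and 1325 bp in the AsiDNA and vehicle lists. MAPK14 showed 630 and 628 bp, against 660 and 618 bp. Thus 5 of the 6 start regions were narrower in both belinostat lists than in the list without belinostat on the same background, all but MAPK14. Over the genome this held for 51.4% of 9361 regions of all lists that cover a protein-coding start, and 12.7% were wider in both.

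**Figure D4:**
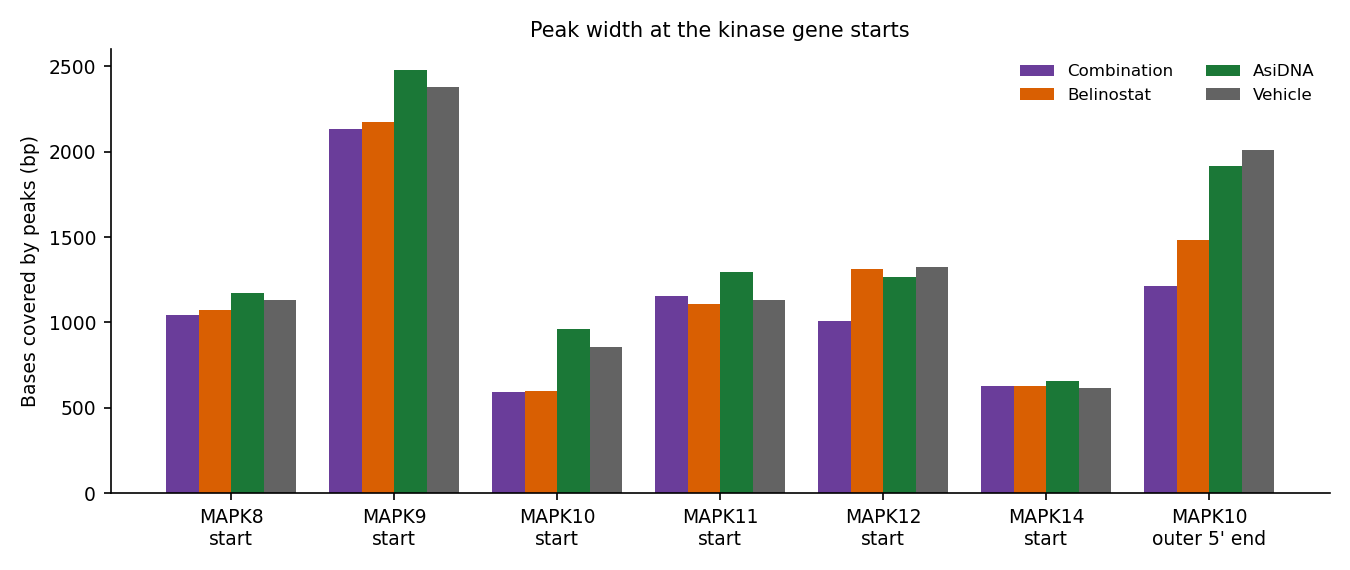
Bases covered by peaks in each list (vertical axis, bp) for the region at the start of 6 kinase genes and for the region at the outer 5′ end of MAPK10. Each bar is 1 list, in the order combination, belinostat, AsiDNA and vehicle, and the largest gap between lists is at the outer 5′ end of MAPK10, from 1212 to 2013 bp.

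Taking the 36 member regions of all lists together, 13 were narrower and 8 wider in both belinostat lists, where the backgrounds were 34% and 26.9%. None reached a 1.5-fold narrowing in both comparisons (background 2.27%) and 1 reached a 1.5-fold widening (background 1.98%). The median width ratio was 1.03 for belinostat over vehicle and 0.955 for the combination over AsiDNA, and over all 94332 such regions it was 1.01 and 0.959. The widths of the members were thus near those of all shared regions.

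MAPK8, the JNK1 gene, spans 132.7 kb on the plus strand of chr10:48306677-48439360. Among the members it had the lowest share of regions in all lists, 7 of 18 (38.9%, background 51.4%). Of the 18, 2 were in both lists without belinostat only (11.1%, background 5.04%). The list counts were 10 regions in the combination and 11 in belinostat, against 13 in AsiDNA and 14 in vehicle. Its start region chr10:48306282-48307479 had folds of 8.54, 7.95, 7.87 and 6.70 in the combination, belinostat, AsiDNA and vehicle. The strongest peak in the window was chr10:48448670-48449342, with 19.4, 20.7, 13.7 and 15.6, but it lies 9.31 kb beyond the gene in ARHGAP22, just inside the limit.

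Open only without belinostat in MAPK8 were chr10:48322120-48322575, with folds of 4.06 in AsiDNA and 4.71 in vehicle, and chr10:48439184-48439550 at the 3′ end, with 3.73 and 3.23. Both ranked low, at percentiles 22.8 and 34 for the first and 16.2 and 8.49 for the second, and the second also overlaps ARHGAP22. The region that was wider in both belinostat lists was chr10:48331278-48331863, 24.9 kb into the gene. It covered 463 and 464 bp in the combination and belinostat lists, and 218 and 209 bp in the AsiDNA and vehicle lists, ratios of 2.12 and 2.22. Its folds were 5.45 and 5.45, at percentiles 40 and 42.4, against 2.87 and 3.55, at percentiles 3.87 and 14.7.

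The other MAPK8 regions followed no common pattern. The region chr10:48377979-48378462 was missing from the combination alone, with folds of 6.49, 10.8 and 8.41 in belinostat, AsiDNA and vehicle. The region chr10:48391077-48391594 was missing from belinostat alone, with 7.62, 6.07 and 6.38 in the combination, AsiDNA and vehicle. In chr10:48317544-48317975 AsiDNA alone had no peak, and the folds were 4.85 and 5.56 in the combination and belinostat and 2.69 in vehicle. A single list held 5 regions, with folds between 2.77 and 4.19.

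**Figure D5:**
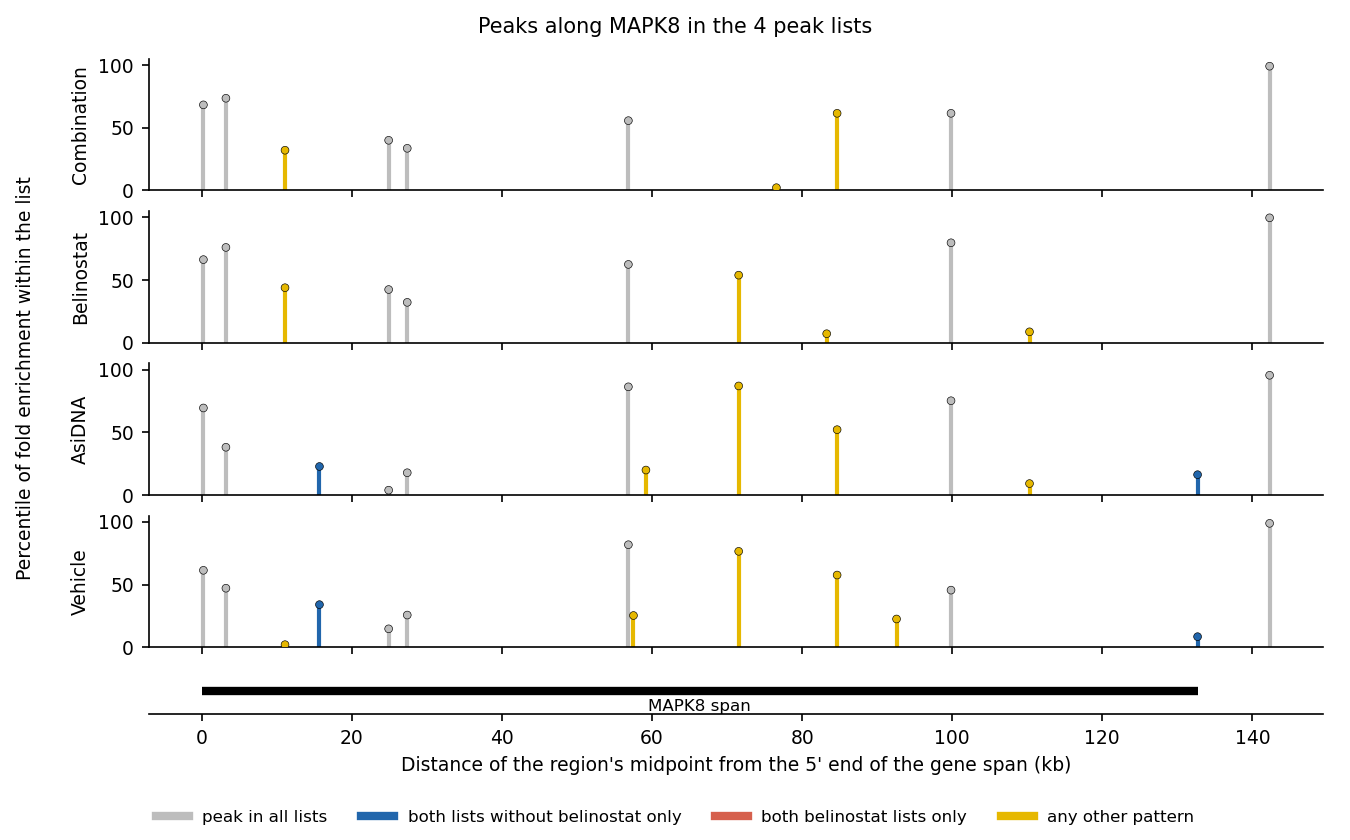
Peaks of each list along MAPK8, by the distance of the region's midpoint from the 5′ end of the gene span in kb (horizontal axis) and the percentile of the fold enrichment within that list (vertical axes, 0 to 100). The 2 blue regions, open only without belinostat, lie at 15.7 and 132.7 kb.

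MAPK9, the JNK2 gene at chr5:180233143-180292083 on the minus strand, had the fewest regions, 2 in 58.9 kb of gene and its flanks, and all lists held both. One is the start region described above, with folds of 7.04, 6.95, 6.21 and 5.58 in the combination, belinostat, AsiDNA and vehicle. The other, chr5:180233018-180233489, lies at the 3′ end of the gene and had 21.4, 18.6, 17.3 and 15.8, at percentile 98.8 or above in every list. A second annotated start, at 180291275, lay 106 bp outside the start region, and a start at 180280608 was 10773 bp from the nearest region.

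MAPK14, the p38α gene, lies on the plus strand of chr6:36027808-36124214, and 6 of its 9 regions were in all lists. Its start region chr6:36027364-36028090 had folds of 11.3 and 12.3 in the combination and belinostat, and 6.55 and 7.59 in AsiDNA and vehicle. These stood at percentiles 82.8 and 88, against 57.6 and 70.1. An intragenic region 6.27 kb downstream, chr6:36033841-36034318, had 11.3, 12.3, 9.58 and 7.33 in the combination, belinostat, AsiDNA and vehicle, and chr6:36118423-36119043 stood highest by the lowest of its 4 ranks, with 11.8, 10.8, 9.92 and 8.67. The region chr6:36094900-36095430 was held by both AsiDNA lists only, with folds of 3.46 in the combination and 4.20 in AsiDNA. Belinostat alone lacked chr6:36028734-36029199, where the folds were 3.23, 3.81 and 3.28 in the combination, AsiDNA and vehicle.

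MAPK13, the p38δ gene, follows MAPK14 on the same strand at chr6:36130513-36144521. It was the only member with no peak within 1000 bp of its start in any list, a state shared by 28.3% of 15812 protein-coding genes with a listed start, while 65.4% had a peak there in all lists, as the other 6 members did. Upstream of the start, chr6:36126949-36127783 was held by all lists with folds of 5.15, 5.70, 5.02 and 3.84 in the combination, belinostat, AsiDNA and vehicle. Its width was 300 bp in the combination and 815 bp in belinostat, against 808 bp in AsiDNA and 312 bp in vehicle, so the 2 width ratios went in opposite directions (0.371 for the combination over AsiDNA, 2.61 for belinostat over vehicle). Inside the gene, chr6:36131839-36132159 was missing from belinostat alone, with 4.55, 3.96 and 4.49 in the combination, AsiDNA and vehicle. The last region, chr6:36136162-36136471, was held by belinostat and AsiDNA but by neither the combination nor vehicle.

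MAPK12 and MAPK11, the p38γ and p38β genes, lie in tandem on the minus strand of chromosome 22, at chr22:50252901-50261683 and chr22:50263713-50270380. All lists had a peak at both starts. The MAPK12 start region chr22:50260498-50261839 had folds of 4.94, 5.25, 5.72 and 4.47 in the combination, belinostat, AsiDNA and vehicle, and the MAPK11 start region chr22:50269841-50271134 had 4.89, 5.69, 5.15 and 5.03. Among the start regions of the members, these were the weakest by fold in each list. The highest-ranked region in the MAPK12 window, chr22:50244374-50245286, with folds of 13.3, 12.02, 10.6 and 8.04, overlaps TUBGCP6 and HDAC10, a deacetylase gene, and not MAPK12. MAPK11 had 3 regions, all held by every list, of which chr22:50271604-50272020 upstream of the start had 5.10, 3.94, 4.10 and 2.69. The region of the pair that differed, chr22:50252114-50252436 just beyond the 3′ end of MAPK12, had a peak in belinostat (3.56) and vehicle (3.30) and none in the AsiDNA lists.

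The other genes of the pathway had shares near the background for both belinostat patterns taken over all their regions. The list held 57 genes, from MAP3K enzymes to substrates and the other MAP kinases, with 510 regions within 10 kb. Of these, 299 were in all lists (58.6%, background 51.4%), 35 had a peak with belinostat alone or combined and none without it (6.86%, background 6.09%), and 26 had the reverse (5.10%, background 5.04%). No gene of the list had a start peak in either of these 2 patterns, where the backgrounds were 0.67% and 0.557% of genes, and 46 of 49 with a listed start had a peak there in all lists, where the background was 65.4%. MAPK8IP2, a JNK scaffold, DUSP2, a MAP kinase phosphatase, and MAPK4, an atypical MAP kinase, had none in any list.

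By role, the MAP3K genes had 19 of 176 regions of the first of these patterns (10.8%, against 6.09% of all regions) and 13 of the second (7.39%, against 5.04%), and the counts below keep that order. MAP3K20, the ribotoxic stress kinase ZAK, contributed 6 and 2 of these from 32 regions. MAP3K2 and MAP3K12 contributed 3 and 1 each, from 11 regions each. The 4 MAP2K genes, the direct activators of JNK and p38, had 1 and 0 of 33, the 1 being at MAP2K3. Scaffolds had 1 and 0 of 29, the 1 being at MAPK8IP1, and phosphatases had 2 and 2 of 62, with 1 and 1 at DUSP10, which acts on JNK and p38. Substrate kinases had 6 and 2 of 67, among them 3 and 1 of 17 at MAPKAPK2 and 2 and 0 of 6 at RPS6KA4. Substrate transcription factors had 1 and 6 of 79, with 1 and 2 at ATF7 and 0 and 1 each at JUN, ELK4, MEF2A and MAX. The other MAP kinases had 5 and 3 of 69, among them 1 and 1 at MAPK4.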

How the data were processed

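NicE-seq of 16 U87 libraries in 4 treatment groups was analysed from 1 deposited peak list per group, and each group was taken from the treatment field of the labels. Per the submitters' processing notes, the tools included MACS2, Bowtie2, deepTools, Picard, SAMtools and Trim Galore 0.5.0, and the build was hg38. For their options, an input control, a blacklist and the merging of 4 libraries into 1 list, the sources used here give nothing. The deposited values per peak are a fold enrichment (a ratio over local background), a p-value (not used) and a q-value on the −log10 scale, a score of 10 times the −log10 q cut to a whole number, and a summit offset. They are the authors' own, were not scaled between lists, and were used within each list for ranks and filters. Depth is unknown.

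Peaks on chromosomes 1 to 22 and X that overlapped by at least 1 bp, across lists, were merged into regions. Percentiles rank the fold among the peaks of its list, and width is the bases a list covers in a region. Gene spans came from RefSeq (GRCh38.p14), and so did starts and promoter sequence, which cover 15812 protein-coding genes. The genome sequence of the other regions was not used. Shares have Wilson 95% intervals that cover counting error only. No test was made, as a group has 1 list. The code was tested on simulated peaks. All 7 members were named, with their start regions, their highest-ranked region and every region of either belinostat pattern, and for MAPK10 the 3 highest regions of each single-list and AsiDNA pattern. Pathway genes were named by role, as those with the most regions in either belinostat pattern, and 1 gene that this rule names is not reported here. Regions of other patterns were named after their values were seen. The members and lists were chosen with earlier results of these data known. Alternatives covered the window, the peak threshold, the list length and the overlap rule. Software was Python 3.11.15 with matplotlib 3.10.9, scipy 1.17.1, pandas 2.3.3 and numpy 2.4.6.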

Additional observations from a re-analysis of the deposited data

Results flagged for a closer look

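At 3 regions of the kinase genes a peak was listed for belinostat and for AsiDNA, and none for the combination or vehicle. The listing of a peak with belinostat thus differed in opposite directions without and with AsiDNA. The difference was not tested, as each group has 1 list. In MAPK10 the region at chr4:86392729-86392987 had folds of 4.87 in belinostat and 5.61 in AsiDNA (percentiles 34.74 and 46.35). In MAPK13 the region at chr6:36136162-36136471 had 5.33 in belinostat and 3.27 in AsiDNA (percentiles 41.01 and 9.13). In MAPK8 the region at chr10:48416714-48417155 had 3.25 in belinostat and 3.27 in AsiDNA (percentiles 8.71 and 9.13). Both MAPK8 peaks and the AsiDNA peak of MAPK13 thus ranked low, and beside such weak peaks a missing peak in another list says little. The 3 regions are 4.11% of the 73 (interval 1.41 to 11.4), and 1.39% of all regions had this pattern. The mirror pattern, combination and vehicle only, was found at 0 of the 73 and at 0.737% of all regions.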

How the results depend on the processing

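No paired analysis was possible because each group has 1 pooled peak list, and for the same reason no replicate could be left out. The regions in all lists numbered 31 to 50 under the alternatives, against 36 as reported, the regions in both lists without belinostat only 10 to 13, against 12, and those of MAPK10 9 to 11, against 10, each within 1.5 times. The count of 6 members with a start peak in all lists was 6 under each alternative. The regions in both belinostat lists only, 1 as reported, moved to 3 with the gene span extended by 50 kb, to 4 with peaks at −log10 q of 5 or more, to 3 where a list had to cover 50% of the region, and to 3 with summits within 250 bp. At MAPK10 the same count moved to 2 under the last 3 of these settings. The cause was not tested. Unknown depth limits every absence of a peak, and the width of a peak as well.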
